A study of Mus musculus with 6 samples.

Results

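The 10 genes described here encode enzymes and carriers of triglyceride resynthesis and chylomicron assembly: Mogat2, Dgat1, Dgat2, Plin3, Mttp, Apoa1, Apoa4, Apoc2, Apoc3 and Sar1b. They were chosen by name, with earlier results of these data known, and make up 10 of the 38561 genes counted in each library. Polyadenylated RNA from small intestinal mucosa (jejunal, per the study's text) of C57BL/6J mice of both sexes, aged 8 to 12 weeks, was sequenced as 3 pools with genotype Rbm47_IKO and 3 pools with genotype wt, each pool combining RNA from 3 mice. In the Rbm47-IKO line, floxed Rbm47 alleles were recombined by a constitutive Vil1-Cre transgene, which is active in the epithelium of small and large intestine, so that other cells of the mucosa keep the gene. The controls are named wild type in the sample labels and Rbm47 fl/fl in the study's methods, and mice were chow-fed. Age and mice per pool are given as in the labels, and the study's methods give wider ranges for both. The question put to the data was whether these genes differ between the pools labelled Rbm47-IKO and the control pools.

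Dietary triglyceride enters enterocytes as fatty acids and monoacylglycerol, which are rejoined at the endoplasmic reticulum (ER). The new triglyceride is either held in cytosolic droplets or loaded onto apolipoprotein B by the microsomal triglyceride transfer protein. The resulting particle acquires further apolipoproteins and leaves the ER in COPII-coated carriers on its way to the lymph as a chylomicron.

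Libraries held 31560320 to 38951830 counts, and all 10 genes were far above the floor of 3 counts, from 4926 counts (Sar1b) to 377529 counts (Apoa1). The targeted gene, Rbm47, had 602.7, 624.6 and 619.8 CPM (counts scaled to a common library total, here by the TMM method of edgeR) in the pools labelled Rbm47-IKO. The control pools had 459.8, 449.9 and 472.1 CPM, a log2 fold change of 0.42 (standard error, SE, 0.10, adjusted p = 0.0751 in edgeR, DESeq2 adjusted p = 0.00105). The targeted gene thus had no lower count where the label calls it deleted. Whether the label holds for these pools cannot be told from these counts, and their genotype is taken from the labels. The position of the deleted exons was not used here, and counts over the whole gene do not show whether they were removed. The 9 enterocyte markers, such as Vil1 and Sis, summed to 41074 to 44160 CPM in the pools labelled Rbm47-IKO and to 37385 to 42260 CPM in controls. Muscle differed between pools within each genotype, with 6 smooth muscle genes summing to 3302 CPM in Rbm47-IKO pool 3 and 2803 CPM in control pool 2 against 90.7 to 585.7 CPM in the other 4 pools. In bulk RNA, fewer cells of a type and less RNA per cell cannot be told apart.

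All 10 genes passed the filter on low counts. None of them passed the threshold, an edgeR quasi-likelihood p of 0.05 or less after Benjamini-Hochberg adjustment over all 16425 genes tested, at which 2.7% of all genes were called. Of all genes, 1.25% were called lower and 1.45% higher in the pools labelled Rbm47-IKO. At an unadjusted p under 0.05, 2 of the 10 were lower, Apoa4 and Apoc3, against 8.21% of all genes in that direction and 16.8% in either direction. DESeq2 called the same 2 genes at an adjusted p of 0.05, with 8.39% of the genes it adjusted called, and limma-voom called 0 of the 10, with 2.62% of all genes called. The pools of the 2 genotypes did not overlap for 2 of the 10 genes, again Apoa4 and Apoc3, both lower, beside 11.6% of all genes in that direction, and for 0 of the 10 in the higher direction, beside 11.7%. The median log2 fold change of the 10 genes was -0.08, beside -0.01 for all genes tested. The enzymes of triglyceride synthesis, the droplet coat, the transfer protein and Sar1b lay within 0.12 of 0 on the log2 scale, whereas Apoa4, Apoc3 and Apoc2 had log2 fold changes of -1.01, -0.59 and -0.54.

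**Figure D1:**
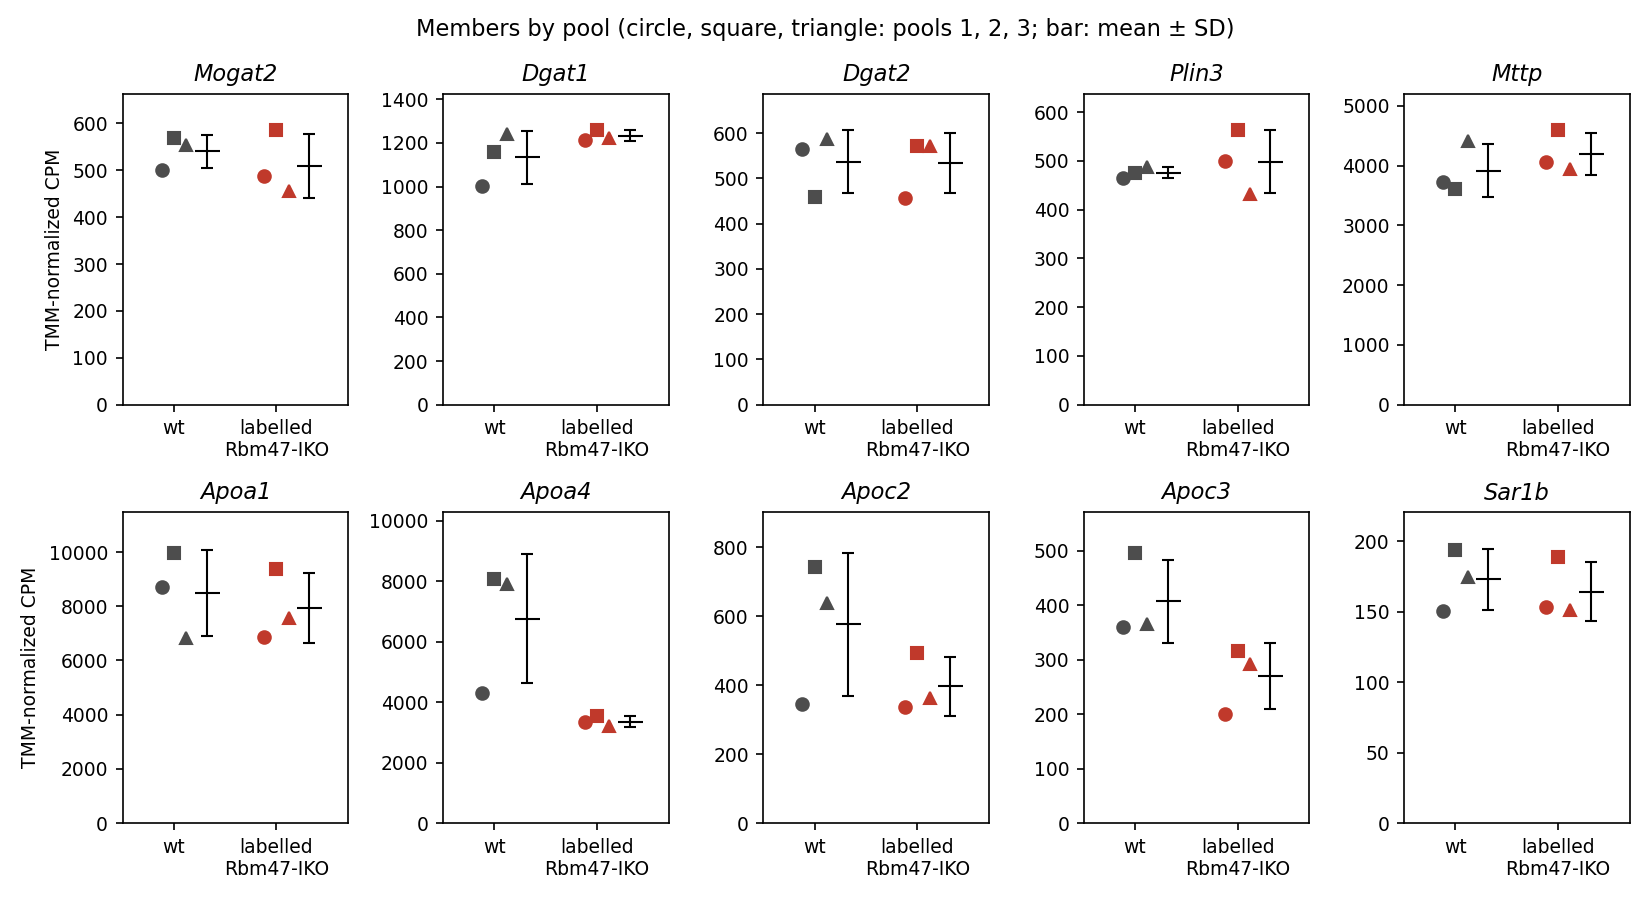
TMM-normalized CPM (y axis, from 0) of each of the 10 genes in the 3 control pools (grey) and the 3 pools labelled Rbm47-IKO (red), with symbols for pool numbers and the mean ± SD beside them. The pools of the 2 genotypes are apart only for Apoa4 (3198 to 3548 against 4295 to 8088 CPM) and Apoc3 (200.5 to 315.4 against 360.3 to 495.1 CPM).

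Mogat2, the monoacylglycerol acyltransferase that makes diacylglycerol, had 487.9, 585.6 and 455.0 CPM in the pools labelled Rbm47-IKO and 501.0, 568.8 and 553.0 CPM in controls. The groups overlapped, and the log2 fold change was -0.09 (95% interval -0.39 to 0.22, adjusted p = 0.835 in edgeR). Dgat1, which adds the last acyl chain to diacylglycerol, had 1215, 1261 and 1222 CPM against 1003, 1157 and 1242 CPM. Its control pool 3 lay within the range of the pools labelled Rbm47-IKO, with a log2 fold change of 0.12 (95% interval -0.17 to 0.41, adjusted p = 0.725 in edgeR). Dgat2, an enzyme of the same step but of another protein family, had 457.5, 572.3 and 572.3 CPM against 565.3, 458.3 and 588.0 CPM. Both groups held 1 low pool and 2 high ones, and the log2 fold change was -0.01 (95% interval -0.35 to 0.34, adjusted p = 0.987 in edgeR). Per kilobase of exon, Dgat1 was 1.57 to 1.96 times as abundant as Dgat2 in the pools labelled Rbm47-IKO and 1.31 to 1.86 times in controls, so that Dgat1 was the higher of the pair in all 6 pools. Dgat2 (chromosome 7, 99153663 to 99182713, GRCm38) and Mogat2 (chromosome 7, 99219084 to 99238619) lie near each other on the minus strand, and Dgat1 lies on chromosome 15 (76502015 to 76511951).

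Plin3, a coat protein of nascent cytosolic droplets, had 500.0, 562.5 and 432.6 CPM in the pools labelled Rbm47-IKO. The control pools were closer together, at 464.1, 475.9 and 486.7 CPM, and lay inside that range (log2 fold change 0.07, 95% interval -0.23 to 0.36, adjusted p = 0.869 in edgeR).

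Mttp, the large subunit of the microsomal triglyceride transfer protein, had 4059, 4595 and 3942 CPM in the pools labelled Rbm47-IKO and 3723, 3604 and 4422 CPM in controls. The highest control pool exceeded 2 of the pools labelled Rbm47-IKO, and the log2 fold change was 0.10 (95% interval -0.24 to 0.44, adjusted p = 0.821 in edgeR). Loss of this gene's function in humans prevents the secretion of apolipoprotein B particles. Its transcript (chromosome 3, 138089855 to 138143388) ranked 19 by mean CPM among all genes tested.

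Sar1b, the small GTPase that starts assembly of the COPII coat and is mutated in human chylomicron retention disease, had 153.2, 188.4 and 150.9 CPM against 150.4, 193.5 and 174.5 CPM. Pool 2 was the highest in each group and the groups overlapped, with a log2 fold change of -0.07 (95% interval -0.40 to 0.25, adjusted p = 0.87 in edgeR). Its close paralog Sar1a, between which and Sar1b the authors' counting could have split reads, had a log2 fold change of 0.17 (adjusted p = 0.622 in edgeR). Per kilobase, Sar1b was 3.83 to 4.95 times as abundant as Sar1a in the pools labelled Rbm47-IKO and 4.66 to 5.85 times in controls.

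The log2 fold changes of the 4 apolipoprotein genes ran from -1.01 (Apoa4) to -0.10 (Apoa1). Whether these differ from one another was not tested. Apoa1, Apoc3 and Apoa4 lie side by side within 14880 bases of chromosome 9, with Apoc3 (46232933 to 46235636, minus strand) between Apoa1 (46228580 to 46230466, plus strand) and Apoa4 (46240696 to 46243459, plus strand). Apoc2 lies on chromosome 7 (19671579 to 19681423, minus strand) in the cluster with Apoe. The windows from 250 bases before to 50 bases after the RefSeq transcription start (GRCm38.p6) are printed for Apoa1, Apoa4 and Apoc2, since they set a gene of the chromosome 9 cluster with a difference near 0 beside its neighbour and the other gene with an entry whose fold change was furthest from 0. An entry in the RefSeq table used was found for 6 of the 10 genes. Capitals mark exact matches to the HNF4-type core CAAAGTNCA (N is any base), searched on both strands. Looser forms were not searched, so a window without capitals is not shown to lack such a site.
Apoa1 (chr9:46228380-46228679, plus strand): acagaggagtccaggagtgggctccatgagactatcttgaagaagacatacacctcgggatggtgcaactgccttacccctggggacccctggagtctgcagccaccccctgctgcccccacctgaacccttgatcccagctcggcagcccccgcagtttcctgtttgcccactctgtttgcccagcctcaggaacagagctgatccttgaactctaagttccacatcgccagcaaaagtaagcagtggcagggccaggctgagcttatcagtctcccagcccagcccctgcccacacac
Apoa4 (chr9:46240594-46240893, plus strand): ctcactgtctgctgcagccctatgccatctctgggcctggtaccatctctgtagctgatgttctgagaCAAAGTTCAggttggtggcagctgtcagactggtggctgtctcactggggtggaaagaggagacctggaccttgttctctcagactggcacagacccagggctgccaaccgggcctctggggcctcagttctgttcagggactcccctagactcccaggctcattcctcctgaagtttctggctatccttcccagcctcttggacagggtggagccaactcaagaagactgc
Apoc2 (chr7:19677892-19678191, minus strand): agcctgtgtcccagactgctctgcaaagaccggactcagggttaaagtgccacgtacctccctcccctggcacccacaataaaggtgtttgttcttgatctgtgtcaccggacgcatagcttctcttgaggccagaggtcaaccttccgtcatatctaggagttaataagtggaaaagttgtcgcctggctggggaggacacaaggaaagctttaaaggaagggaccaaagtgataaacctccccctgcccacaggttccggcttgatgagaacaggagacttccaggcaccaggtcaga

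The core was found in 1 place in these windows, at base -182 from the start of Apoa4, and 1.41% of the 32851 RefSeq windows of this length hold it. The nuclear receptor half-site AGGTCA was found at -115 and 43 from the start of Apoc2 and in 16.3% of all windows, and the TATAAA motif, held by 13.6% of all windows, in none of the members' windows. The RefSeq starts of Apoa1, Apoa4 and Apoc2 used here lie inside the gene spans given above. Positions counted from the ends of those spans would differ. These matches describe letters in the windows and do not show binding, which was not measured here.

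Apoa4, a lipid-binding apolipoprotein that intestine secretes on chylomicrons after a fat meal, had 3337, 3548 and 3198 CPM in the pools labelled Rbm47-IKO. The control pools had 4295, 8088 and 7903 CPM, so that every pool labelled Rbm47-IKO was below every control pool. The 3 pools labelled Rbm47-IKO were tightly grouped (SD 176.5, n = 3), whereas control pool 1 stood well below the other controls (SD 2138, n = 3). The fitted level was 49.7% of the control level, a log2 fold change of -1.01 (SE 0.25, 95% interval -1.58 to -0.44, adjusted p = 0.0802 in edgeR), which missed the threshold. Without control pool 1 the log2 fold change was -1.25 and passed (adjusted p = 0.019 in edgeR), and in the other 5 fits with 1 pool left out it lay between -1.05 and -0.86 and did not pass. With the summed smooth muscle genes as a covariate it was -1.07 and passed (adjusted p = 0.0281 in edgeR), and without the muscle-rich pool of each genotype it was -0.84 (adjusted p = 0.181 in edgeR). Of the exon bases of Apoa4, 34.8% overlap Gm10680 on the opposite strand. Whether counting used strand is not given in the sources used here, so that reads of the pair cannot be told apart there, and Gm10680 itself was counted at no more than 1 CPM in any pool.

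Apoc3, an inhibitor of triglyceride clearance from plasma particles, had 200.5, 315.4 and 292.9 CPM in the pools labelled Rbm47-IKO and 360.3, 495.1 and 365.3 CPM in controls. The groups did not overlap, with a fitted level of 66.3% of the control level (log2 fold change -0.59, 95% interval -1.07 to -0.12, adjusted p = 0.193 in edgeR). Apoc2, the activator of lipoprotein lipase, had 335.6, 494.8 and 362.0 CPM against 345.9, 743.2 and 639.2 CPM. Control pool 1 fell among the pools labelled Rbm47-IKO, and the log2 fold change was -0.54 (95% interval -1.20 to 0.13, adjusted p = 0.409 in edgeR). Of the Apoc2 exon bases, 12% overlap Apoc4 on the same strand, which had at most 0.264 CPM. Apoa1, the main protein of high density lipoprotein and also a chylomicron component, had 6873, 9369 and 7560 CPM against 8725, 9948 and 6812 CPM. The lowest value was a control pool and the groups overlapped throughout (log2 fold change -0.10, 95% interval -0.56 to 0.36, adjusted p = 0.88 in edgeR). In an exact two-sided permutation test of log2 CPM over pools, Apoa4 and Apoc3 had p = 0.1, below which 3 pools against 3 cannot go, and the other 8 genes had p from 0.3 to 0.9.

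**Figure D2:**
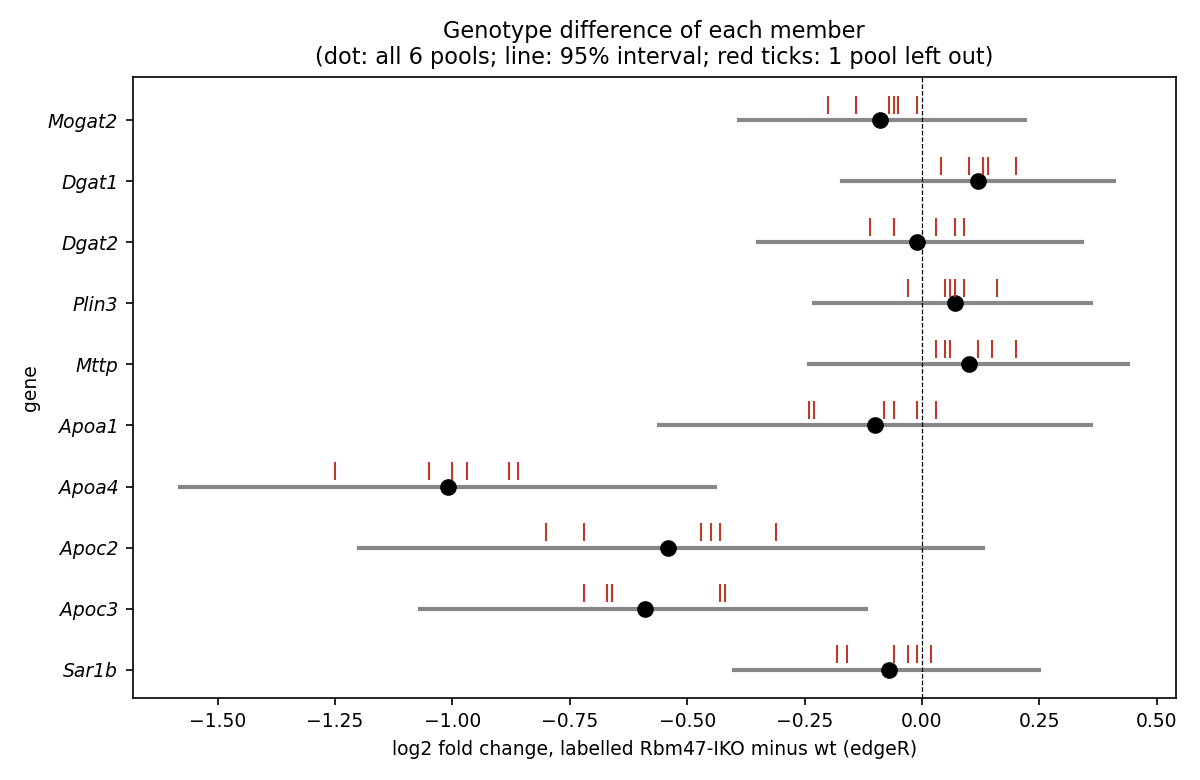
Log2 fold change (x axis, pools labelled Rbm47-IKO minus control) of the 10 genes (y axis) from the edgeR fit to all 6 pools, with its 95% interval as a grey line and the 6 values with 1 pool left out as red ticks. The intervals of Apoa4 (-1.58 to -0.44) and Apoc3 (-1.07 to -0.12) lie below 0 before adjustment over all genes, and the other 8 intervals cross 0.

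Ratios of reads within a pool do not depend on the scaling of libraries, and were chosen after the values were seen. Apoa4 had 0.485, 0.379 and 0.423 reads per Apoa1 read in the pools labelled Rbm47-IKO and 0.492, 0.813 and 1.16 in controls. Control pool 1 was thus close to the pools labelled Rbm47-IKO in this ratio, and the other 2 control pools were well above them. Apoc3 had 0.0292, 0.0337 and 0.0387 reads per Apoa1 read against 0.0413, 0.0498 and 0.0536, again with all control pools higher. The 10 genes together took 1.73 to 2.09% of all counts in the pools labelled Rbm47-IKO and 2.07 to 2.63% in controls, and the 4 apolipoproteins took 1.06 to 1.33% against 1.41 to 1.97%. Among the reads of these 4, Apoa4 made up 25.8 to 31.1% in the pools labelled Rbm47-IKO and 31.3 to 50.3% in controls. Apoa1, whose groups overlapped, made up most of the rest, so that these sums are not independent of Apoa4.

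**Figure D3:**
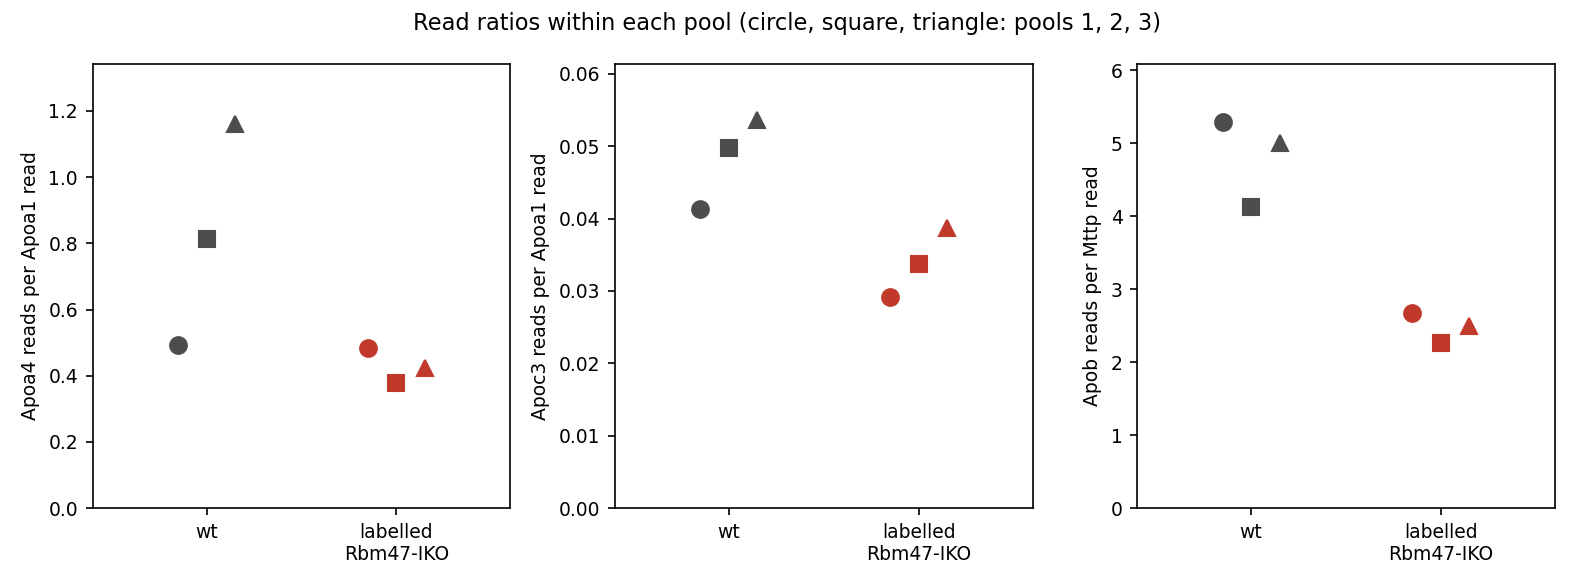
Reads of Apoa4 per Apoa1 read, of Apoc3 per Apoa1 read and of Apob per Mttp read (y axes, from 0) in each control pool (grey) and each pool labelled Rbm47-IKO (red), with symbols for pool numbers. Control pool 1 lies beside the pools labelled Rbm47-IKO for Apoa4 per Apoa1 (0.492 against 0.379 to 0.485) and apart from them for Apob per Mttp (5.29 against 2.27 to 2.67).

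By level per kilobase (RPKM from TMM-scaled counts), the order in controls was Apoa1 (6873 ± 1279, SD, n = 3), Apoa4 (3726 ± 1178), Mttp (888.1 ± 100.2), Apoc2 (618.1 ± 221.0), Apoc3 (401.3 ± 75.4), Dgat1 (371.3 ± 39.6), Mogat2 (294.8 ± 19.3), Dgat2 (238.7 ± 30.8), Plin3 (220.3 ± 5.24) and Sar1b (137.7 ± 17.2). Among neighbours in this order, the control pools overlapped between Apoc2 and Apoc3, Apoc3 and Dgat1, and Dgat2 and Plin3. In the pools labelled Rbm47-IKO the first 4 places were the same, with Apoa4 at 1852 ± 97.3 RPKM (SD, n = 3), and Apoc3 stood below Dgat1 and Mogat2 at 265.9 ± 60 RPKM. There the pools overlapped between Apoc2 and Dgat1 and among neighbours from Mogat2 through Apoc3 and Dgat2 to Plin3. Across the 6 pools, log2 CPM of Apoa4 was correlated with that of Apoc2 (Pearson's r = 0.87) and Apoc3 (0.77) and less with that of Apoa1 (0.16) or Mttp (-0.18). The highest value over all pairs of the 10 genes was Mogat2 with Sar1b (0.93) and the lowest Mttp with Apoc3 (-0.35). These correlations describe 6 pools that share library preparation and scaling and include the difference between genotypes. The 5 genes whose log2 CPM most resembled the mean of the standardized levels of the 10 genes were Cog2, Tsg101, Actr10, Fuom and Pop4, with r from 0.931 to 0.954 over 6 pools among 7905 genes of at least 10 CPM. That mean overlapped between the genotypes, at -0.64, 0.69 and -0.53 in the pools labelled Rbm47-IKO and -0.44, 0.45 and 0.48 in controls.

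Of 93 other genes of the pathway, 91 were matched by symbol and 85 were tested. The test called 4 of the 85, all lower in the pools labelled Rbm47-IKO, beside 1.25% of all genes called lower. The median log2 fold change of the 85 was 0.06. Among the 10 genes of fatty acid uptake, binding and activation, 2 fell in edgeR, the other 8 did not pass in edgeR, and the median was 0.16. DESeq2 called 4 of the 10, the same 2 lower and Fabp2 and Slc27a4 higher, beside 8.39% of the genes it adjusted. Cd36, a scavenger receptor for long-chain fatty acids, had 49.7, 36.5 and 45.8 CPM against 108.1, 126.4 and 157.9 CPM in controls. All 3 pools labelled Rbm47-IKO were below all controls, and the log2 fold change was -1.57 (SE 0.18, adjusted p = 0.0095 in edgeR). Slc27a2, a fatty acid transport protein with acyl-CoA synthetase activity, had 43, 42.9 and 48.6 CPM against 78.6, 83.5 and 109.1 CPM (log2 fold change -1.01, SE 0.14, adjusted p = 0.0171 in edgeR). Of its exon bases, 11.2% overlap Gm26697 on the opposite strand. Fabp1, Fabp2 and Slc27a4, which are more abundant than either per kilobase, did not pass in edgeR. Fabp2, the intestinal fatty acid binding protein, had a log2 fold change of 0.51 (8203 ± 447.6 against 5774 ± 1004 CPM, SD, n = 3, adjusted p = 0.178 in edgeR and 0.0138 in DESeq2), and Fabp1 had 0.17 (adjusted p = 0.783 in edgeR). Slc27a4, the main fatty acid transport protein of enterocytes and named after its values were seen, had 0.46 (2075 ± 133.7 against 1510 ± 123.8 CPM, SD, n = 3, adjusted p = 0.11 in edgeR and 0.00763 in DESeq2).

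Among 14 tested genes of the glycerol phosphate route and related acyltransferases, 0 passed with edgeR, 3 had an unadjusted p under 0.05, beside 16.8% of all genes, DESeq2 called 2 higher (Gpat4 and Lpin2, named after their values were seen), beside 8.39% of the genes it adjusted in either direction, and the median log2 fold change was 0.00. Soat2, which esterifies cholesterol for the particle, had 263.5 ± 3.1 against 339.0 ± 50.9 CPM (SD, n = 3, log2 fold change -0.36, adjusted p = 0.214 in edgeR), and Agpat2 had a log2 fold change of -0.09 (adjusted p = 0.872 in edgeR). Among 17 tested genes of droplet coats, growth and lipolysis, 0 passed with edgeR and 2 were under 0.05 before adjustment, both higher, beside 8.57% of all genes in that direction, while 14 of the 17 log2 fold changes were positive (82.4%, beside 49.3% of all genes; median 0.21). Several of these varied widely between pools, among them the adipocyte gene Plin1, with 0.202, 3.93 and 2.85 against 1.59, 2.37 and 0.11 CPM (SE of the log2 fold change 1.09). Abhd6, a monoacylglycerol lipase, had 100.5 ± 9.72 against 69.5 ± 10.6 CPM (SD, n = 3, log2 fold change 0.53, adjusted p = 0.101 in edgeR) and passed with DESeq2 (adjusted p = 0.0128). Cidec, which enlarges droplets, had a log2 fold change of -0.30 (adjusted p = 0.337 in edgeR) and 104.9 to 161.5 CPM, in pools where the adipocyte hormone Adipoq reached at most 4.28 CPM.

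Among 10 tested genes of particle lipidation and other apolipoproteins, 0 passed with edgeR and 2 had an unadjusted p under 0.05, beside 16.8% of all genes. Apob, the structural protein of the particle and the editing target for which Rbm47 is known as a cofactor, had 10841, 10430 and 9864 CPM against 19714, 14903 and 22119 CPM in controls. The groups were apart, and the log2 fold change of -0.87 (SE 0.19, 95% interval -1.30 to -0.43, adjusted p = 0.0583 in edgeR) missed the threshold and passed it with DESeq2 (adjusted p = 1.78e-05) and limma-voom (adjusted p = 0.0421). Apob passed under 6 of the 13 other settings and did not pass with the replicate block (adjusted p = 0.207) or the GC offset (adjusted p = 0.0791 in edgeR). With 1 pool left out it passed in 1 of 6 fits, and the log2 fold change lay between -1.01 and -0.73. P4hb, the small subunit of the transfer protein complex, had 2900, 3368 and 2884 CPM against 1924, 2536 and 2740 CPM. It was higher in each pool labelled Rbm47-IKO than in each control pool, with a log2 fold change of 0.35 (adjusted p = 0.36 in edgeR). Apob had 2.67, 2.27 and 2.5 reads per Mttp read in the pools labelled Rbm47-IKO and 5.29, 4.13 and 5 in controls. Per kilobase, which allows for the longer Apob transcript, the ratio of Apob to Mttp was 0.845, 0.718 and 0.792 in the pools labelled Rbm47-IKO and 1.68, 1.31 and 1.58 in controls. Apob was thus below Mttp per kilobase in the former and above it in the latter. Coverage along these transcripts was not examined, so which of them had more copies is not shown.

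The COPII coat and ER export group was the one with the most genes at an unadjusted p under 0.05 in 1 direction, 9 lower and 1 higher of 21 tested, beside 8.21% and 8.57% of all genes. In edgeR 2 of the 21 passed the adjusted threshold, both lower, beside 1.25% of all genes, and DESeq2 called 5, all lower, beside 8.39% of the genes it adjusted in either direction. The pools were apart for 10 of the 21 in the lower direction, beside 11.6% of all genes, and the median log2 fold change was -0.18. Sec23a, an inner coat subunit, had 247.1, 244.1 and 230.1 CPM against 425.8, 468.6 and 581.2 CPM (log2 fold change -1.03, SE 0.14, adjusted p = 0.0145 in edgeR). Of its exon bases, 8.9% overlap Gm17529 on the opposite strand, which had 5.06 to 14.8 CPM. Its paralog Sec23b had a log2 fold change of 0.11 (95% interval -0.26 to 0.48, adjusted p = 0.83 in edgeR). Kif5b, a kinesin motor placed in this list for its part in carrier transport, had 159.3, 139.0 and 168.7 CPM against 249.7, 228.6 and 298.7 CPM (log2 fold change -0.73, SE 0.14, adjusted p = 0.0393 in edgeR). The outer coat gene Sec13 and the cargo receptor Surf4 had log2 fold changes of 0.03 and 0.26 (adjusted p in edgeR 0.959 and 0.496). Named after their values were seen, Sec24d, a cargo-selecting coat subunit, and Mia2, an ER exit site protein for large cargo, had log2 fold changes of -0.54 and -0.72 (adjusted p in edgeR 0.107 and 0.11). Sec23b and Sar1a were also named after their values were seen.

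Of 13 tested transcription factors of the enterocyte lipid programme, 0 passed with edgeR and 7 had an unadjusted p under 0.05, beside 16.8% of all genes, 5 of them higher (8.57% of all genes) and 2 lower (8.21%). DESeq2 called 2 of the 13, Cdx2 and Plagl2, both higher and named after their values were seen, beside 8.39% of the genes it adjusted in either direction. Hnf4a, the nuclear receptor that drives many apolipoprotein genes, had 1640, 1547 and 1166 CPM against 926.0, 1062 and 1246 CPM. The groups overlapped by 1 control pool, and the log2 fold change was 0.43 (adjusted p = 0.276 in edgeR). Creb3l3, an ER-bound factor known to induce Apoa4, had a log2 fold change of -0.06 (95% interval -0.36 to 0.25, adjusted p = 0.9 in edgeR).

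**Figure D4:**
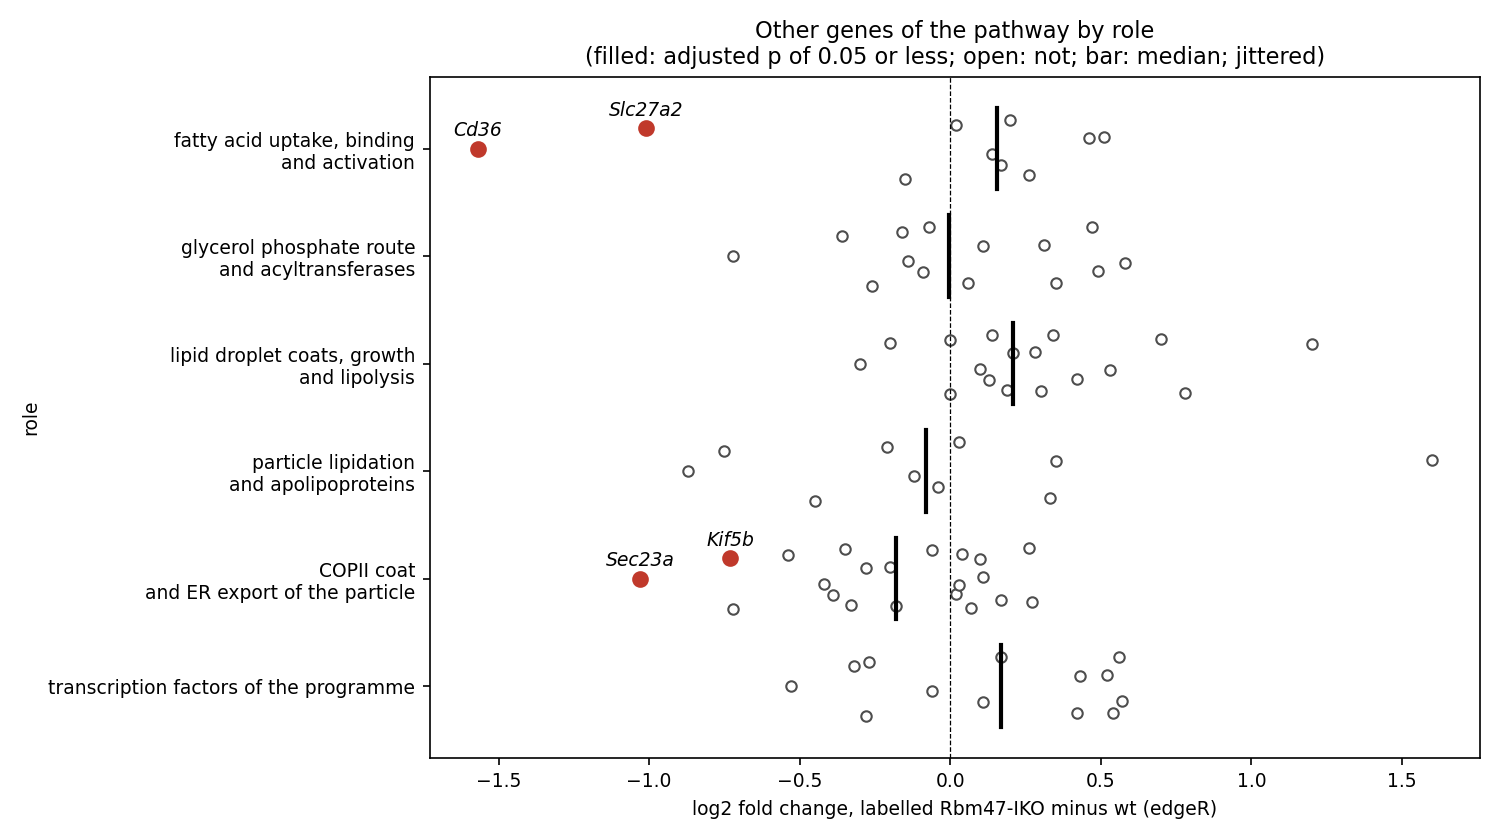
Log2 fold change (x axis, pools labelled Rbm47-IKO minus control) of the 85 tested other genes of the pathway, in rows by role (y axis), with a bar at each row's median and genes past the adjusted threshold filled in red. Only Cd36 (-1.57), Slc27a2 (-1.01), Sec23a (-1.03) and Kif5b (-0.73) are filled.

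The calls among these other genes depended on the pools used and, for Cd36, Sec23a and Kif5b, also on other settings. Cd36 did not pass without Rbm47-IKO pool 1, without Rbm47-IKO pool 2 or without control pool 3 (adjusted p = 0.0509 in edgeR, 0.0741 and 0.0504), and Slc27a2 and Sec23a did not pass without any 1 of the 3 pools labelled Rbm47-IKO or without control pool 3. Kif5b passed only without control pool 2 among the 6 fits with 1 pool left out, and did not pass with the GC offset (log2 fold change -0.57, adjusted p = 0.0615 in edgeR) or with scaling to epithelial genes (-0.65, adjusted p = 0.1 in edgeR). The direction of all 4 was the same in the 6 fits with 1 pool left out, with log2 fold changes from -1.69 to -1.41 for Cd36, -1.11 to -0.85 for Slc27a2, -1.13 to -0.89 for Sec23a and -0.82 to -0.61 for Kif5b.

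Marker genes of other cells and positions were compared beside these results. Among all genes tested, the pools of the genotypes were apart for 11.6% in the lower and 11.7% in the higher direction. The edgeR test called 1.25% of all genes lower and 1.45% higher. The 7 goblet cell genes summed to 22137 to 25614 CPM in the pools labelled Rbm47-IKO and 16586 to 19445 CPM in controls, so that the groups were apart, with 0 of 7 past the adjusted threshold and a median log2 fold change of 0.25. Fcgbp made up most of these sums (10374 to 15215 CPM). Only Fcgbp and Clca1 had pools apart (log2 fold changes 0.37 and 0.60). The pools of Muc2, Tff3, Zg16, Agr2 and Spink4 overlapped, with Spink4 at -0.28. The 5 villus tip genes summed to 2187 to 2822 against 2175 to 3448 CPM, and 1 of them, Nt5e, was lower (log2 fold change -1.09, adjusted p = 0.0219 in edgeR). The pools of Klf4 were apart in the higher direction, and it did not pass (log2 fold change 0.27, adjusted p = 0.416 in edgeR). The 8 proximal genes summed to 4237 to 5413 against 3869 to 4885 CPM, with 1 called, Akp3 (log2 fold change 2.82, adjusted p = 0.0424 in edgeR), and a median log2 fold change of 0.31. Lct made up most of the proximal sums (3374 to 4805 CPM), and the pools of Akp3, Pdx1, Gata4 and Slc40a1 were apart, higher in those labelled Rbm47-IKO, although the last 3 did not pass in edgeR (log2 fold changes 1.79, 0.42 and 0.45). The 7 distal genes summed to 1925 to 2401 against 1593 to 2285 CPM with 0 called in edgeR and a median log2 fold change of 0.62. Cubn made up most of the distal sums (1275 to 1938 CPM), and among the other distal genes the pools of Fabp6 (log2 fold change 1.93, adjusted p = 0.201 in edgeR) and Slc51a (0.62, adjusted p = 0.074 in edgeR) were apart, higher in those labelled Rbm47-IKO. The pools of Slc51b, Fgf15, Slc10a2 and Pyy overlapped, with log2 fold changes of 0.64, 1.18, -0.47 and -0.15. The 8 B cell and plasma cell genes summed to 552.6 to 859.8 against 782.4 to 1212 CPM, the 7 adipocyte genes to 132.8 to 192.2 against 148.7 to 198.4 CPM, and the 8 genes of proliferating crypt cells to 141.9 to 241.6 against 167.1 to 278.8 CPM. Igha made up most of the B cell and plasma cell sums (295.4 to 870.2 CPM). That list had a median log2 fold change of -0.60 with 0 called in edgeR. Its genes Cd79a and Cd79b had pools apart, lower in those labelled Rbm47-IKO (-0.68 and -0.81). Cidec made up most of the adipocyte sums, and the other 6 adipocyte genes summed to 4.27, 60.6 and 49.5 CPM in the pools labelled Rbm47-IKO and to 21.1, 36.9 and 4.25 CPM in controls, with Lep at 0 counts in 1 pool. Of the 7 hepatocyte genes, which summed to 466.1 to 711.4 against 277.6 to 386.7 CPM, Cps1, which enterocytes also express, took nearly all, and Alb was at most 5.23 CPM, with Serpina1a at 0 counts in at least 1 pool. The marker and pathway lists share 5 genes, Fabp2 (enterocyte), Plin1 and Cidec (adipocyte), Gata4 (proximal) and Creb3l3 (villus tip). The 7 exocrine pancreas genes reached 18.9 CPM in Rbm47-IKO pool 3 and less than 1 CPM elsewhere, with Amy2a5, Prss2, Pnlip and Cela3b at 0 counts in at least 1 pool. The part of these cell types and positions in the differences of Apoa4, Apoc3, Apob, Cd36 and Sec23a was not tested, apart from the fits with smooth muscle.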

How the data were processed

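RNA from small intestinal mucosa was analysed in 6 pools, 3 per genotype, grouped by the sample titles. The authors aligned reads to GRCm38 with STAR 2.5.1a and counted them per Ensembl gene with featureCounts 1.4.6-p5, per the submitters' processing notes. Use of strand and treatment of multimapping reads are not given in the sources used here. The authors deposited raw counts of 38561 genes per pool, with the CPM (counts scaled to the table's total) and the RPKM (CPM per kilobase of exon) they computed from them. Both were recomputed to within rounding and not used further. Symbols came from GENCODE M21 for 36639 genes, and genes without one held 0.369% of counts.

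Counts past filterByExpr (16425 genes) were given TMM factors and compared by the quasi-likelihood test of edgeR 4.0.16 in R 4.3.3, with genotype as the only term and Benjamini-Hochberg adjustment over all genes tested. DESeq2 1.42.0, limma 3.58.1 and Python 3.11.15 were also used, and the fit was checked on simulated counts with known changes. CPM in the text is scaled by TMM, and log2 CPM for correlations and permutation tests has a prior count of 2. Comparisons of genes per kilobase assume even coverage along transcripts, which was not examined. P-values measure the spread between pools of mice. Floors cover counting error only, since reads are not independent molecules. The members and gene lists were chosen with earlier results of these data known. Named genes were Rbm47, the 10 genes, the called genes and the 2 with the highest RPKM in each role group of the pathway list, and the 5 most alike in pattern, with exceptions stated. Further exceptions were Plin1, genes that overlap a named gene, and single marker genes, which were named for their level or their difference. Alternatives were 13 other settings of scaling, filter, test, replicate block, GC offset (lowess span 0.3) and smooth muscle covariate, the omission of each pool, and, added after the data were seen, the omission of the muscle-rich pool of each genotype. Apob48r and Vamp7 were not matched by symbol.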

Additional observations from a re-analysis of the deposited data

How the results depend on the processing

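The direction of Apoa4, Apoc3, Apoc2, Mttp and Dgat1 was the same under the 13 other settings and with each of the 6 pools left out. Under the 13 other settings, Apoa4 ranged from -1.12 to -0.94 (adjusted p from 0.000346 to 0.168), Apoc3 from -0.71 to -0.52 and Mttp from 0.07 to 0.17. With 1 pool left out they ranged from -1.25 to -0.86, -0.72 to -0.42 and 0.03 to 0.20, and without both muscle-rich pools Apoa4 was -0.84 (adjusted p = 0.181), Apoc3 -0.50 and Mttp 0.08. Apoc2 ranged from -0.64 to -0.47 under the 13 other settings. It was -0.80 without control pool 1, -0.31 without control pool 2 and -0.26 without both muscle-rich pools. Scaling moved the median of all genes by less than 0.1 on the log2 scale. Scaling to 6 epithelial genes (sums of 9319 to 11594 CPM against 10782 to 11596 CPM in controls) changed the share of higher calls from 53.7% to 66.2%, with 235 higher and 120 lower calls in place of 238 and 205. Genes near 0 changed sign. Dgat2 was 0.07 with epithelial scaling, 0.00069 with no filter, 0.02 with the muscle covariate and -0.11 to 0.09 with 1 pool left out. Sar1b was 0.04 with the GC offset, 0.05 with GC offset and replicate block and -0.18 to 0.02 with 1 pool left out. Creb3l3 was 0.01 with epithelial scaling, and Sec13 was -0.0035 with upper quartile scaling and -0.01 with the muscle covariate. With 1 pool left out, Creb3l3 ranged from -0.15 to 0.03, Sec13 from -0.10 to 0.14, Plin3 from -0.03 to 0.16, Apoa1 from -0.24 to 0.03, Fabp1 from -0.04 to 0.32 and Agpat2 from -0.20 to 0.05. Without both muscle-rich pools, Mogat2 was 0.02, Apoa1 0.06, Sar1b 0.06 and Agpat2 0.17. The causes were not tested. Members called, 0 in the fit reported, were 2 with DESeq2, 1 with the muscle covariate and 0 to 1 with 1 pool left out. Other pathway genes called, 4 there, were 15 with DESeq2, 9 with library size alone, 2 with the replicate block, 1 with GC offset and block, and 0 to 5 with 1 pool left out. Higher and lower calls among them were 0 and 4 in the fit reported and 7 and 8 with DESeq2. They were 4 and 5 with library size alone, 2 and 3 with epithelial scaling and 2 and 4 with the muscle covariate. All genes called, 443 in the fit reported, were 1243 with DESeq2, 711 with the muscle covariate, 100 with the replicate block, 71 with GC offset and block, and 0 to 431 with 1 pool left out. Without Rbm47-IKO pool 2, 0 genes passed in edgeR and 1729 had an unadjusted p under 0.05. Same-numbered pools did not deviate together (correlations 0.408, -0.00258 and -0.277), so that the block is not read as a pairing, and under it Sec23a and Kif5b did not pass (adjusted p = 0.0691 and 0.0711), nor with GC offset and block did Cd36, Sec23a and Kif5b (adjusted p = 0.0581, 0.0863 and 0.116), while under the block alone Apoa4 was -0.95 (adjusted p = 0.168). At 31560320 counts or more per pool, the 10 genes were each counted at 4926 or more.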
